A study of Homo sapiens with 12 samples.

Results

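The unfolded protein response and the integrated stress response are described here through 37 genes, chosen by name, in 3 lines of gastric cancer cells that had been sorted for CD133. Of the 37 genes, 36 have a row among the 34595 genes with a value, and all 36 were bright enough to be tested. The gene without a row is MANF, which codes for a secreted protein of the stressed endoplasmic reticulum (ER). The 36 genes fall into 13 ER chaperones and folding enzymes, 8 genes of ER-associated degradation and the translocon, most of them targets of XBP1 or ATF6, 5 sensors and transcription factors, and 10 genes of the ATF4 branch.

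The lines are KATO-III, SNU-216 and SNU-601, established lines kept in culture without treatment, and the series' design text names SNU201 where the labels of the arrays name SNU-216. CD133, the product of PROM1, is a membrane glycoprotein used as a stem cell marker, and cells were stained for it and sorted into the brightest 10% (CD133+) and the dimmest 6% (CD133-). Each of the 6 sorted populations was hybridized on 2 Illumina HT-12 v3 BeadChips, which gives 12 arrays. Whether the 2 arrays of a population stand for different cultures or sorts or share an extract is not stated, so the p-values below cover the spread between arrays, which may be technical. The authors deposited quantile-normalized intensities, which are fluorescence values on a linear scale with a background subtracted, with 1 row per gene symbol. For the tests, intensities under 32.7, the floor, were set to it and log2 was taken. Precision is limited by the number of arrays.

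PROM1 was higher in CD133+ cells of all 3 lines, by 1.10 on the log2 scale in KATO-III, 2.02 in SNU-216 and 1.86 in SNU-601. All 5 epithelial markers were above the floor on every array (summed intensity 46394 to 57671). Of the markers of other cell types, no endothelial gene exceeded the floor on any array, nor did PTPRC and CD3D, which define leukocytes, or COL3A1 and DCN, which mark fibroblasts. COL1A2 exceeded it on 1 array. COL1A1 exceeded it on 7 arrays, with the highest means in SNU-601 (174 in CD133+ and 167 in CD133- cells). In KATO-III LUM, a marker of fibroblasts, had means of 78 (CD133+) and 763 (CD133-), and CD14, a marker of monocytes, had means of 846 and 1222. LYZ was high in KATO-III (means of 7267 in CD133+ and 4615 in CD133- cells) and in SNU-601 (9101 and 9694).

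When unfolded proteins gather in the ER, the sensors IRE1 (ERN1), PERK (EIF2AK3) and ATF6 leave the chaperone BiP (HSPA5). IRE1 splices the mRNA of XBP1, and XBP1 and ATF6 switch on chaperones, the degradation machinery and the translocon. PERK phosphorylates the initiation factor eIF2, as do other kinases of the integrated stress response when amino acids or heme run short, and this favors translation of ATF4, which drives genes of amino acid supply and the factor CHOP (DDIT3). Secretory epithelium of the stomach makes much protein through the ER. Splicing of XBP1, cleavage of ATF6 and translation of ATF4 are not seen by an array of mRNA levels.

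Promoter letters are shown first, because they show which members hold letters matching an element of XBP1 and ATF6 and which hold letters matching one of ATF4. HERPUD1 carries both. Windows of 300 bases, 250 before and 50 after each start, came from RefSeq (GRCh38.p14), and 35 of the 37 genes had a window (50 windows in all). The ER stress response element (ERSE) was searched for as CCAAT, 9 bases and CCACG, on both strands. It was present in 9 of the 50 windows (18%), in 7 genes, and in 27 of all 35116 windows (0.0769%). The 7 genes are HSPA5, HSP90B1, PDIA6, CALR, CANX, CRELD2 and XBP1. Some of these elements were defined on these very genes, so that a match is a description. The capitals mark the ERSE, read as CCAAT with CCACG or, on the other strand, as CGTGG with ATTGG, in GRCh38.p14:
HSPA5 (chr9:125241379-125241421, minus strand): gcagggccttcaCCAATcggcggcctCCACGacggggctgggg
HSP90B1 (chr12:103930204-103930351, plus strand): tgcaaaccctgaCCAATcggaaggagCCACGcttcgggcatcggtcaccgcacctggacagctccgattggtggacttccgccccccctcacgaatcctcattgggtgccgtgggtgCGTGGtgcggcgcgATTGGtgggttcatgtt
CALR (chr19:12938372-12938414, plus strand): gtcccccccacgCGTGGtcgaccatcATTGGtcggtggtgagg
CRELD2 (chr22:49918542-49918584, plus strand): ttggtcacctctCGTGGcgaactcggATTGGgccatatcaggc
XBP1 (chr22:28800591-28800633, minus strand): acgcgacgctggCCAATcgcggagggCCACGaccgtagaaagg

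HSP90B1 holds 2 matches in this stretch, 1 on each strand. The related element ERSE-II was searched for as ATTGG, 1 base and CCACG, on both strands. It was present in 3 genes, SDF2L1, HYOU1 and HERPUD1 (6% of the members' windows and 0.0541% of all windows). The letters TGACGTGG, the UPR element (UPRE), were present on either strand in HYOU1 and SSR3 (4% and 0.729%), and in HYOU1 they overlap the ERSE-II that lies farther from the start. The capitals mark the ERSE-II, the UPRE of HYOU1 and, in HERPUD1, a match to the ATF4 element described next:
SDF2L1 (chr22:21642102-21642136, plus strand): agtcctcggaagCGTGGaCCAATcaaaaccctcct
HYOU1 (chr11:119057262-119057405, minus strand): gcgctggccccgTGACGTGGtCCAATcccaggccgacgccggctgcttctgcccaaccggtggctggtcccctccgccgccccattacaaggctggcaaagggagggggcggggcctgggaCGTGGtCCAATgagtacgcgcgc
HERPUD1 (chr16:56931954-56932047, plus strand): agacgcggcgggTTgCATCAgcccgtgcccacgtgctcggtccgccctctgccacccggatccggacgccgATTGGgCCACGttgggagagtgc

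The element read by C/EBP and ATF4 dimers (CARE) was searched for as TGATG, any base and AA, on both strands. It was present in 3 genes, HERPUD1, CHAC1 and ASNS (6% of the members' windows and 3.62% of all windows). In the next lines, the capitals mark it:
ASNS (chr7:97872457-97872488, minus strand): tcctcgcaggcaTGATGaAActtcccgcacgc
CHAC1 (chr15:40953250-40953281, plus strand): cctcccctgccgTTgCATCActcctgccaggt

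The ASNS match reads forward and the CHAC1 match lies on the opposite strand. A match to CARE, whose share of all windows is not far below that of the members, says only that these letters are present. No match says only that these letters are not in this window.

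**Figure D1:**
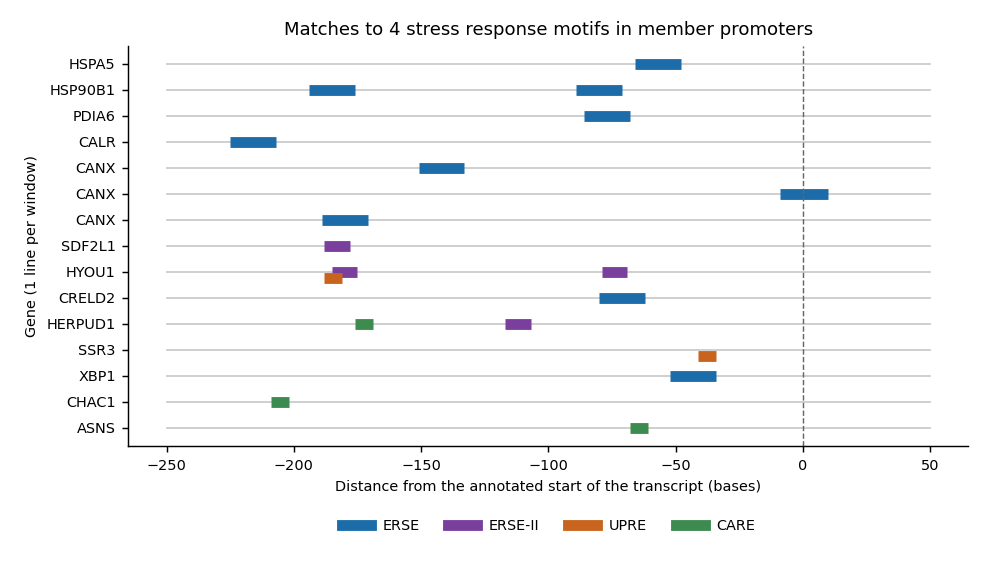
Matches to ERSE, ERSE-II, UPRE and CARE in the promoter windows of member genes, with distance from the annotated start in bases on the x axis and 1 line per window. The matches of ERSE and ERSE-II lie before the start except in a window of CANX, whose start falls inside the match.

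The first comparison asked which of these genes differ between CD133+ and CD133- cells within each line. In KATO-III more chaperone and degradation genes were lower than higher in CD133+ cells, in SNU-601 the chaperones that were called were all higher, and in SNU-216 the largest changes were those of the kinase EIF2AK3 and the enzyme PSPH. A gene was called where limma's Benjamini-Hochberg adjusted p, over 20147 tested genes, was under 0.05. In KATO-III, 14 of 36 members were lower in CD133+ cells (38.9%, beside 20.6% of all tested genes) and 7 were higher (19.4%, beside 18.7%). In SNU-216, 9 members were higher (25%, beside 14.6%) and 4 lower (11.1%, beside 14%). In SNU-601, 7 members were higher (19.4%, beside 8.59%) and 4 lower (11.1%, beside 7.78%). In either direction, 21, 13 and 11 members were called, beside 39.3%, 28.6% and 16.4% of all tested genes. The median log2 difference over the members was -0.04 in KATO-III, 0.09 in SNU-216 and 0.02 in SNU-601, and over all tested genes it was 0 in each line. Without SNU-216 CD133+ replicate 2, or without SNU-216 CD133- replicate 1, 8 members were called in SNU-216 in place of 13. A line tested on its own 4 arrays gave 18 called members in KATO-III, 6 in SNU-216 and 2 in SNU-601. Because the arrays measure sorted cells in bulk, fewer cells of a kind and less RNA per cell cannot be told apart.

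**Figure D2:**
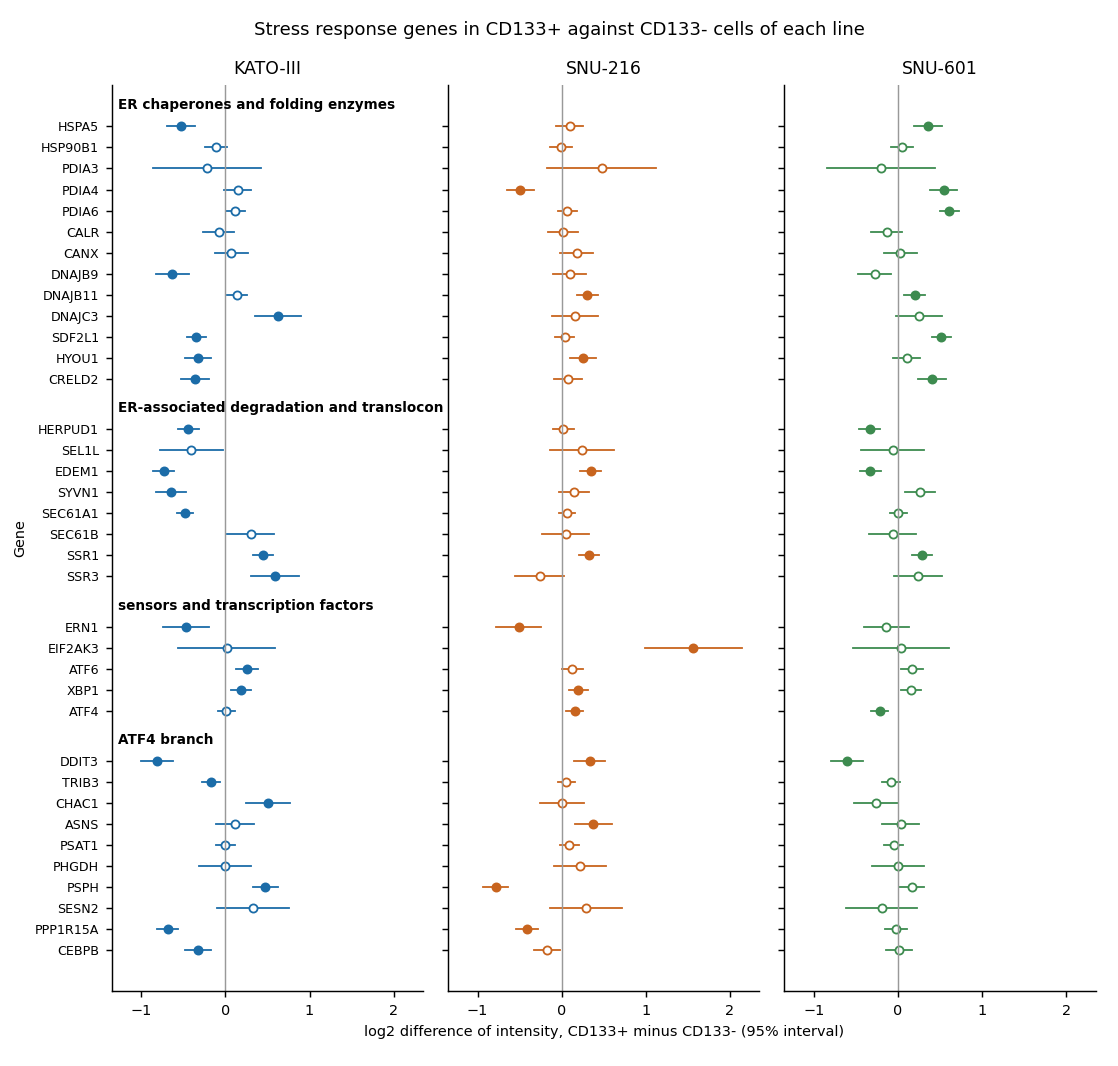
Log2 difference of intensity, CD133+ minus CD133-, of the 36 tested members in each line, with its 95% interval from limma. Filled points were called at an adjusted p under 0.05. Points left of 0 are most frequent in KATO-III, and 6 of 13 chaperones are filled to the right of 0 in SNU-601.

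By promoter, of the 10 tested genes with an ERSE or ERSE-II, 5 were lower and 1 higher in CD133+ cells of KATO-III, 2 were higher and 0 lower in SNU-216, and 4 were higher and 1 lower in SNU-601. Among the other 24 tested genes with a window, 9 were lower and 5 higher in KATO-III, 3 lower and 7 higher in SNU-216, and 3 lower and 3 higher in SNU-601. The shares over all tested genes are those given above.

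In KATO-III other gene groups moved with these calls. Of 11 genes of the immediate early response and cytosolic heat shock, which respond to handling of cells, 8 were lower in CD133+ cells and none was higher (median log2 difference -0.37). ATF3 is among the 11 and is also counted in the wider pathway set below, so the lists are not fully separate. Its KATO-III means were 483 in CD133+ and 926 in CD133- cells. Their summed intensity was 26244 to 27104 on the CD133+ arrays and 44709 to 44711 on the CD133- arrays. FOSB had mean intensities of 757 and 5071, JUN of 2890 and 8111, and DUSP1 of 1285 and 4439 in CD133+ and CD133- cells. In SNU-216 and SNU-601, 2 of the 11 were higher and 2 lower. Between the fractions, 5 of 8 proliferation genes in KATO-III, 3 of 8 in SNU-216 and 5 of 8 in SNU-601 were higher in CD133+ cells, and none was lower. Of all tested genes, 18.7%, 14.6% and 8.59% were higher in CD133+ cells of KATO-III, SNU-216 and SNU-601, and 20.6%, 14% and 7.78% were lower. In KATO-III the summed intensity of the 5 fibroblast markers was 117 to 172 on the CD133+ arrays and 777 to 830 on the CD133- arrays. Most of the CD133- sum is LUM, and COL1A1 went the other way, with means of 59.2 in CD133+ and 23.9 in CD133- cells. Of the 2 tested fibroblast markers, 1 was called higher and 1 lower. LUM and CD14 were lower in KATO-III CD133+ cells (log2 differences of -3.31 and -0.53), and LYZ was higher (0.66). The part of these genes in the KATO-III result was not tested.

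Among the 13 tested ER chaperones and folding enzymes, HSPA5, SDF2L1 and CRELD2 were lower in CD133+ cells of KATO-III and higher in those of SNU-601. No other chaperone was called in opposite directions in these lines. In KATO-III, 5 of 13 were lower in CD133+ cells (38.5%, beside 20.6% of all tested genes) and 1 was higher (7.7%, beside 18.7%). The median log2 difference there was -0.11. In SNU-601, 6 of 13 were higher (46.2%, beside 8.59%) and 0 lower (beside 7.78%), with a median of 0.20. In SNU-216, 2 were higher (15.4%, beside 14.6%) and 1 lower (7.7%, beside 14%), with a median of 0.09. HSPA5, the BiP chaperone that holds the sensors inactive, had intensities of 4703 and 4624 on the CD133+ arrays and 6692 and 6757 on the CD133- arrays of KATO-III. In SNU-601 its intensities were 3714 and 4229 in CD133+ and 3037 and 3151 in CD133- cells, and in SNU-216 they were 2549 and 2837 against 2444 and 2594. The fractions do not overlap in KATO-III and SNU-601, in opposite directions, and they overlap in SNU-216. The log2 differences were -0.53 ± 0.07 (SE, adjusted p = 0.000397) in KATO-III, 0.36 ± 0.07 (adjusted p = 0.0101) in SNU-601 and 0.09 ± 0.07 (adjusted p = 0.4) in SNU-216. The SNU-601 call of HSPA5 was lost without CD133+ replicate 2 (adjusted p = 0.0567) or CD133- replicate 1 of that line (adjusted p = 0.063), within a range of 0.0104 to 0.063 over the 12 fits that leave out 1 array.

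SDF2L1 and CRELD2 had the pattern of HSPA5. SDF2L1, a partner of ER co-chaperones, was lower by 0.35 on the log2 scale in KATO-III CD133+ cells and higher by 0.52 in SNU-601 CD133+ cells. CRELD2, an ER protein induced by stress, had log2 differences of -0.36 and 0.40 in these lines. HYOU1, the nucleotide exchange factor of BiP, was lower in KATO-III (-0.33 ± 0.07) and higher in SNU-216 (0.25 ± 0.07). Its SNU-216 call was lost without CD133+ replicate 1, CD133+ replicate 2 or CD133- replicate 1 of that line (adjusted p of 0.0788, 0.116 and 0.156, in a range of 0.0203 to 0.156).

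Members of the disulfide isomerase family went separate ways. PDIA4 had intensities of 646 and 719 in CD133+ and 943 and 972 in CD133- cells of SNU-216, where it was lower (log2 difference -0.49 ± 0.07, adjusted p = 0.0011). In SNU-601 PDIA4 had 1605 and 1469 against 1024 and 1084 and was higher (0.54 ± 0.07, adjusted p = 0.0016). In KATO-III it had 3840 and 3478 against 3294 and 3312, a difference that was not called (adjusted p = 0.15). PDIA6 was called in SNU-601 alone, with 4394 and 4458 in CD133+ and 2900 and 2894 in CD133- cells (0.61 ± 0.05, adjusted p = 0.00023). Its intensities were 7395 and 6869 against 6350 and 6793 in KATO-III, and 3565 and 3447 against 3380 and 3314 in SNU-216. PDIA3 was dim on every array (14.3 to 57.9), near the floor of 32.7, and was called in no line.

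The J-domain co-chaperones of BiP also differed among themselves. DNAJB9, which turns IRE1 off through BiP, had intensities of 862 and 978 in CD133+ and 1512 and 1337 on the CD133- arrays of KATO-III, the largest change of a chaperone there (-0.63 ± 0.09, adjusted p = 0.00041). Its intensities were 902 and 998 against 914 and 866 in SNU-216, and 1479 and 1575 against 1872 and 1821 in SNU-601. DNAJC3 went the other way in KATO-III (0.63 ± 0.12), from 743 to 1148 in the mean of the CD133- and CD133+ arrays. DNAJB11, which hands unfolded proteins to BiP, was higher in CD133+ cells of SNU-216 and SNU-601. Its intensities were 16013 and 14752 in CD133+ and 14122 and 13805 on the CD133- arrays of KATO-III, 13138 and 14025 against 10989 and 10994 in SNU-216, and 12632 and 12952 against 11465 and 10810 in SNU-601. All CD133+ values of DNAJB11 lie above the CD133- values of the same line. The log2 differences were 0.14, 0.30 and 0.20, with adjusted p of 0.074, 0.00295 and 0.036. The SNU-601 call of DNAJB11 was lost when any array of that line was left out, when either KATO-III CD133- array was, or when either SNU-216 CD133- array was (8 of 12 fits, adjusted p up to 0.18).

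HSP90B1, CALR and CANX, general chaperones of the ER, were called in no line. HSP90B1, the ER form of HSP90, had log2 differences of -0.11, -0.01 and 0.05 in KATO-III, SNU-216 and SNU-601. The lectin chaperones CALR and CANX lay between -0.13 and 0.18. The product of MANF was formerly named ARMET, and the table holds a row of that symbol, which was looked up outside the list after its values could be seen. ARMET was higher in SNU-601 CD133+ cells (0.48 ± 0.07, adjusted p = 0.0018) and had log2 differences of -0.04 in KATO-III and -0.14 in SNU-216.

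**Figure D3:**
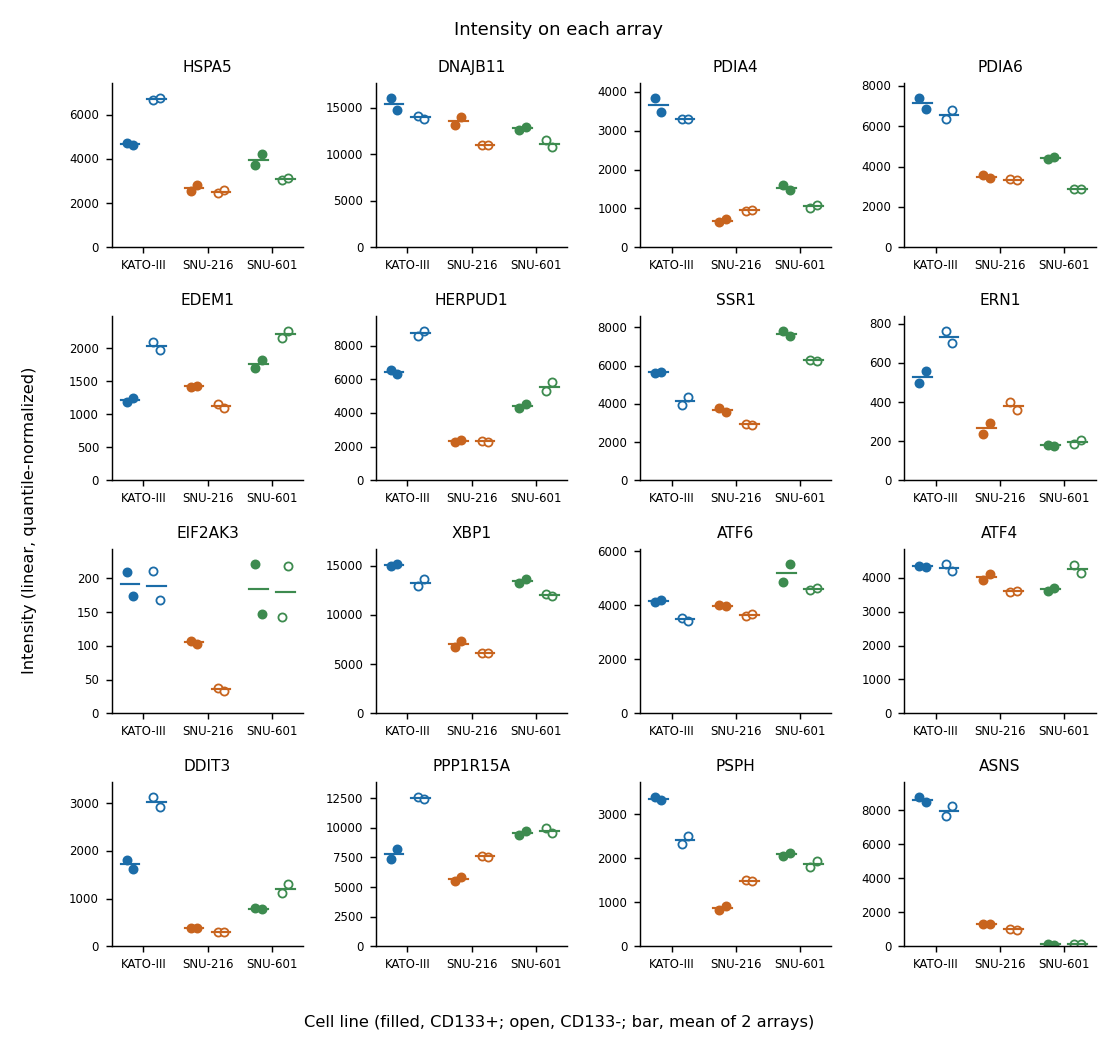
Intensity (linear scale, each panel with its own axis from 0) of 16 members on each of the 12 arrays. Filled circles are CD133+ arrays, open circles CD133- arrays, and bars are the means of 2 arrays. HSPA5, EDEM1 and DDIT3 show opposite orders of the fractions in different lines, while SSR1 shows CD133+ above CD133- in each.

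In KATO-III the degradation genes HERPUD1, EDEM1 and SYVN1 were lower in CD133+ cells, while genes of the translocon were called in either direction. In KATO-III, 4 of the 8 genes of the group were lower (50%, beside 20.6% of all tested genes) and 2 higher (25%, beside 18.7%). The median log2 difference there was -0.42. In SNU-216, 2 were higher (25%, beside 14.6%) and 0 lower (beside 14%), with a median of 0.11. In SNU-601, 1 was higher (12.5%, beside 8.59%) and 2 lower (25%, beside 7.78%), with a median of -0.03. EDEM1, which pulls misfolded glycoproteins out of the folding cycle, had intensities of 1187 and 1250 in CD133+ and 2090 and 1964 on the CD133- arrays of KATO-III. Its intensities were 1417 and 1432 against 1152 and 1095 in SNU-216, and 1704 and 1816 against 2156 and 2256 in SNU-601. The fractions of EDEM1 do not overlap in any line, and SNU-216 has the opposite order from the other lines. Log2 differences were -0.73 ± 0.06 (adjusted p = 1.6e-05), 0.34 ± 0.06 (adjusted p = 0.0018) and -0.33 ± 0.06 (adjusted p = 0.0049).

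HERPUD1, which organizes the degradation complex in the membrane, had intensities of 6533 and 6335 in CD133+ and 8590 and 8858 on the CD133- arrays of KATO-III, 2300 and 2399 against 2333 and 2304 in SNU-216, and 4281 and 4541 against 5283 and 5856 in SNU-601. It was lower in KATO-III (-0.44 ± 0.06) and SNU-601 (-0.34 ± 0.06), and in SNU-216 the fractions overlap. SYVN1, the ubiquitin ligase HRD1, was lower in KATO-III (-0.64 ± 0.08, adjusted p = 0.000221). Its partner SEL1L was dim (72.4 to 153) and was called in no line.

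The translocon, the channel through which new proteins enter the ER, had 1 gene that was higher in CD133+ cells of every line. SSR1 codes for the alpha subunit of the translocon-associated protein complex. Its intensities were 5605 and 5672 in CD133+ and 3936 and 4360 on the CD133- arrays of KATO-III, 3782 and 3580 against 2963 and 2910 in SNU-216, and 7797 and 7542 against 6295 and 6258 in SNU-601. In each line both CD133+ arrays lie above both CD133- arrays. The log2 differences were 0.44 ± 0.05, 0.33 ± 0.05 and 0.29 ± 0.05, with adjusted p of 0.000195, 0.00187 and 0.00699. SSR3, the gamma subunit, was higher in KATO-III (0.59 ± 0.13, on dim intensities of 134 to 212) and was not called in the other lines (-0.26 and 0.24). SEC61A1, the channel itself, was lower in KATO-III (-0.48 ± 0.04, adjusted p = 3.9e-05), with log2 differences of 0.06 and 0.01 in SNU-216 and SNU-601. SEC61B, the beta subunit of the channel, was called in no line (0.30, 0.05 and -0.06).

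Of the 5 sensors and transcription factors, 2 were higher and 1 lower in CD133+ cells of KATO-III, 3 were higher and 1 lower in SNU-216, and 0 were higher and 1 lower in SNU-601 (median log2 differences of 0.02, 0.16 and 0.04). The shares of all tested genes were 18.7% higher and 20.6% lower in KATO-III, 14.6% and 14% in SNU-216, and 8.59% and 7.78% in SNU-601. XBP1, with 1 row for the gene and no separate value for its spliced mRNA, had intensities of 14974 and 15143 in CD133+ and 12897 and 13623 on the CD133- arrays of KATO-III. Its intensities were 6690 and 7367 against 6143 and 6088 in SNU-216, and 13247 and 13647 against 12165 and 11960 in SNU-601. In each line the CD133+ values are higher, by 0.18, 0.20 and 0.16 on the log2 scale (SE 0.05 each), with adjusted p of 0.02, 0.0188 and 0.0745. Both calls of XBP1 were lost with other arrays left out. They were CD133+ replicate 1, CD133+ replicate 2 or CD133- replicate 1 in KATO-III (adjusted p of 0.0634, 0.0806 and 0.116, in a range of 0.00829 to 0.116) and CD133+ replicate 2 or either CD133- array in SNU-216 (0.0968, 0.066 and 0.0827, in a range of 0.00781 to 0.0968).

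ATF6 had intensities of 4118 and 4199 in CD133+ and 3539 and 3417 on the CD133- arrays of KATO-III, 3992 and 3958 against 3602 and 3672 in SNU-216, and 4865 and 5515 against 4578 and 4630 in SNU-601. The CD133+ arrays are the higher in each line, with log2 differences of 0.26 ± 0.06 (adjusted p = 0.0059), 0.13 ± 0.06 (adjusted p = 0.13) and 0.17 ± 0.06 (adjusted p = 0.075). ERN1, the sensor that splices XBP1, had the opposite order of the fractions. Its intensities were 498 and 560 in CD133+ and 763 and 701 on the CD133- arrays of KATO-III, 238 and 295 against 398 and 358 in SNU-216, and 180 and 178 against 188 and 206 in SNU-601. The CD133- arrays are the higher in each line, and the log2 differences were -0.47 ± 0.12 (adjusted p = 0.013), -0.51 ± 0.12 (adjusted p = 0.012) and -0.14 ± 0.12 (adjusted p = 0.54). The call of ERN1 was lost without CD133+ replicate 1 (adjusted p = 0.0924) or CD133- replicate 1 (0.0819) in KATO-III, in a range of 0.00729 to 0.0924. It was lost without the arrays of the same numbers in SNU-216 (0.0727 and 0.0769, in a range of 0.00752 to 0.0769).

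EIF2AK3, the PERK kinase, had the largest change of all members, in SNU-216. Its intensities there were 108 and 103 in CD133+ and 38.2 and 33.3 in CD133- cells, the latter just above the floor. In KATO-III they were 209 and 173 against 211 and 168, and in SNU-601 they were 221 and 148 against 142 and 219, where the fractions overlap. The log2 differences were 1.56 ± 0.25 (adjusted p = 0.0018) in SNU-216, 0.02 in KATO-III and 0.04 in SNU-601. With a floor of 100 the SNU-216 difference was 0.08 and was not called, since the CD133- intensities are then set to 100. ATF4 itself had a narrow range at the level of its mRNA, with intensities from 3592 to 4399 over all 12 arrays. It had 3941 and 4095 in CD133+ against 3592 and 3621 in CD133- cells of SNU-216 (0.16 ± 0.04, adjusted p = 0.026), and 3616 and 3697 against 4372 and 4140 in SNU-601 (-0.22 ± 0.04, adjusted p = 0.0102). Its intensities were 4340 and 4323 against 4399 and 4191 in KATO-III, where the fractions overlap. The call of ATF4 in SNU-216 was lost without CD133+ replicate 2 or either CD133- array (adjusted p of 0.119, 0.0904 and 0.0737, in a range of 0.0231 to 0.119). The call in SNU-601 was lost without CD133+ replicate 1 (0.0545) or CD133- replicate 1 (0.0576), in a range of 0.0121 to 0.0576.

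The ATF4 branch holds factors that follow stress and enzymes of amino acid supply. In KATO-III, 4 of 10 were lower in CD133+ cells (40%, beside 20.6% of all tested genes) and 2 higher (20%, beside 18.7%). In SNU-216, 2 were higher (20%, beside 14.6%) and 2 lower (20%, beside 14%). In SNU-601, 0 were higher (beside 8.59%) and 1 lower (10%, beside 7.78%). The median log2 differences were 0, 0.07 and -0.04. PSAT1 and PHGDH lie under the floor on all KATO-III arrays, PHGDH on all SNU-601 arrays and CHAC1 on all SNU-216 arrays. Their differences there are fixed at 0, and the KATO-III median of 0 is made by these values. DDIT3, the factor CHOP that promotes cell death under lasting stress, had intensities of 1807 and 1625 in CD133+ and 3125 and 2913 on the CD133- arrays of KATO-III. Its intensities were 380 and 379 against 292 and 311 in SNU-216, and 798 and 787 against 1119 and 1306 in SNU-601. No line has an overlap of the fractions of DDIT3, and SNU-216 has the opposite order. The log2 differences were -0.82 ± 0.08 (adjusted p = 8.2e-05), 0.33 ± 0.08 (adjusted p = 0.016) and -0.61 ± 0.08 (adjusted p = 0.0018). The SNU-216 call was lost without either CD133+ array or CD133- replicate 1 of that line (0.0725, 0.0698 and 0.0951, in a range of 0.00895 to 0.0951).

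PPP1R15A, the subunit GADD34 that directs a phosphatase to eIF2 and ends the response, had intensities of 7349 and 8180 in CD133+ and 12575 and 12393 on the CD133- arrays of KATO-III. Its intensities were 5552 and 5859 against 7628 and 7554 in SNU-216, and 9418 and 9756 against 9969 and 9533 in SNU-601. The fractions are apart in KATO-III and SNU-216 and overlap in SNU-601. The log2 differences were -0.69 ± 0.06 (adjusted p = 2.4e-05), -0.41 ± 0.06 (adjusted p = 0.00072) and -0.02 ± 0.06 (adjusted p = 0.91). TRIB3, a pseudokinase that restrains ATF4, was lower in KATO-III by 0.17 on the log2 scale. The TRIB3 call was lost without KATO-III CD133+ replicate 1 or CD133- replicate 2 (adjusted p of 0.0759 and 0.0836, in a range of 0.0131 to 0.0836). CEBPB, a partner of ATF4 at CARE sites, was lower in KATO-III (-0.32 ± 0.07) and not called elsewhere. SESN2, which restrains mTOR signaling, was called in no line (0.33, 0.29 and -0.19, on intensities of 105 to 356).

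Among the enzymes, PSPH, the last step of serine synthesis, had intensities of 3383 and 3311 in CD133+ and 2320 and 2507 on the CD133- arrays of KATO-III, 823 and 917 against 1507 and 1480 in SNU-216, and 2051 and 2128 against 1791 and 1940 in SNU-601. It was higher in KATO-III (0.47 ± 0.07, adjusted p = 0.00049) and lower in SNU-216 (-0.78 ± 0.07, adjusted p = 5.9e-05), and the SNU-601 difference was not called (0.16 ± 0.07). CHAC1, which degrades glutathione, was higher in KATO-III CD133+ cells, with 325 and 322 against 226 and 231 (0.50 ± 0.11, adjusted p = 0.0074). ASNS, which makes asparagine, had 1317 and 1318 against 1043 and 985 in SNU-216 (0.38 ± 0.10, adjusted p = 0.019). The ASNS call was lost without any array of that line, CD133+ replicate 1 or 2 and CD133- replicate 1 or 2 (0.0874, 0.0849, 0.0557 and 0.112, in a range of 0.00172 to 0.112). PSAT1 and PHGDH, which act before PSPH in serine synthesis, were called in no line. No call was possible for either in KATO-III or for PHGDH in SNU-601, where they lie under the floor.

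Whether the difference between the fractions itself differed between the lines was tested with the interaction of line and fraction. The interaction was called for 19 of 36 members (52.8%, beside 44.4% of all tested genes), in 7 chaperones, 5 degradation and translocon genes, 2 sensors and factors and 5 genes of the ATF4 branch. PSPH (adjusted p = 3.9e-05), EDEM1 (4.2e-05) and SDF2L1 (8.1e-05) had the smallest values. Of the 36 members, 9 were called higher in 1 line and lower in another, beside 10.9% of all tested genes, and they are HSPA5, PDIA4, SDF2L1, HYOU1, CRELD2, EDEM1, ATF4, DDIT3 and PSPH. SSR1 was the only member called higher in CD133+ cells of all 3 lines (0.63% of all tested genes were), and none was called lower in all 3 (0.427%). The interaction of TRIB3 (adjusted p = 0.0488) was lost in 9 of the 12 fits that leave out 1 array (adjusted p up to 0.13), with the exceptions of SNU-216 CD133+ replicate 2 and both SNU-601 CD133+ arrays.

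Over all lines, with line as a block, the fractions differed in few of these genes. SSR1 (log2 difference 0.35 ± 0.05, adjusted p = 0.0063), DNAJB11 (0.21 ± 0.04, adjusted p = 0.024), XBP1 (0.18 ± 0.04, adjusted p = 0.029) and ATF6 (0.19 ± 0.05, adjusted p = 0.049) were higher in CD133+ cells. PPP1R15A was lower (-0.37 ± 0.09, adjusted p = 0.0403). These are 4 and 1 of 36 members (11.1% and 2.8%), beside 2.62% and 2.11% of all tested genes. That fit takes both arrays of a population as independent samples, and on population means, with 1 value per population, limma called 0 members (lowest adjusted p = 0.796, with 3 members at an unadjusted p under 0.05). SSR1 kept its call in each fit that left out 1 array. Calls of the others were lost without a KATO-III or SNU-216 array in several fits, and those of ATF6 also without 3 of the 4 SNU-601 arrays, the exception being CD133+ replicate 1. The number of members called fell to 1 without KATO-III CD133+ replicate 1, KATO-III CD133- replicate 2 or either SNU-216 CD133- array, to 2 without KATO-III CD133+ replicate 2, KATO-III CD133- replicate 1 or SNU-216 CD133+ replicate 2, and to 3 without SNU-216 CD133+ replicate 1. Left out line by line, 7 members were called over KATO-III and SNU-216, 7 over KATO-III and SNU-601, and 1 over SNU-216 and SNU-601. The methods name a signal-to-noise ratio, whose formula is not given in the sources used here. It was computed here on all 12 arrays, 6 of each fraction, with the mean difference divided by the summed SDs of both fractions. No member exceeded 1 (0.558% of all genes did) and none was under -1 (0.402%). The highest ratio was 0.67 for DNAJB11 and the lowest -0.57 for PPP1R15A. With intensities centred within each line, 5 members exceeded 1 (3.5% of all genes did) and 3 were under -1 (3.86%).

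Between the lines, compared as 4 arrays against 4, 25 to 29 of 36 members were called, beside 62% of all tested genes between KATO-III and SNU-216, 58.6% between KATO-III and SNU-601 and 56.5% between SNU-216 and SNU-601. Against SNU-216, 23 of 36 members were higher in KATO-III (63.9%, beside 30.3% of all tested genes) and 2 lower (5.6%, beside 31.7%). Against SNU-601, 18 were higher in KATO-III (50%, beside 28.7%) and 11 lower (30.6%, beside 29.9%). Between SNU-216 and SNU-601, 8 were higher in SNU-216 (22.2%, beside 29.4%) and 20 lower (55.6%, beside 27.1%). PHGDH, which exceeded the floor in SNU-216 alone and was tested through those arrays, is among the members counted as higher there.

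By role, 8 of the 13 tested member chaperones were higher in KATO-III than in SNU-216 and 9 higher than in SNU-601 (beside 30.3% and 28.7% of all tested genes). Lower in KATO-III were 0 and 2 (beside 31.7% and 29.9%). A wider list of ER folding genes, of which 23 were tested, did not share this order. It had 10 higher and 8 lower in KATO-III than in SNU-216, and 7 higher and 10 lower than in SNU-601. Among these 23, ERP44 and PPIB had no mean above the floor outside KATO-III. PDIA4 had the largest difference of a chaperone, with intensities of 3294 to 3840 in KATO-III, 1024 to 1605 in SNU-601 and 646 to 972 in SNU-216 (log2 difference 2.10 ± 0.05 against SNU-216). The ranges of PDIA4 do not overlap, and neither do those of HSPA5, at 4624 to 6757, 3037 to 4229 and 2444 to 2837. HSP90B1 was called between no pair of lines (log2 differences of -0.04, -0.07 and -0.03). In the degradation group HERPUD1 had the largest difference, 1.68 ± 0.04 between KATO-III and SNU-216. Among the sensors ERN1 did, with 498 to 763 in KATO-III, 238 to 398 in SNU-216 and 178 to 206 in SNU-601 (1.73 ± 0.08 between KATO-III and SNU-601). XBP1 was lower in SNU-216, at 6088 to 7367, than in KATO-III (12897 to 15143) and SNU-601 (11960 to 13647), whose ranges overlap.

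In the ATF4 branch 3 genes, PSAT1, CHAC1 and PHGDH, were at the floor in at least 1 line. Because each gene has its own probes, levels are compared between arrays and not between genes. PSAT1, which makes phosphoserine, had intensities of -13.9, -4.84, -8.99 and -24.4 on the KATO-III arrays, all under the floor, and of 2844 to 3084 in SNU-216 and 5876 to 6391 in SNU-601. Relative to the floor its level was at least 91.3-fold higher in SNU-216 and at least 188-fold higher in SNU-601 than in KATO-III. ASNS had the opposite order, with 7668 to 8760 in KATO-III, 985 to 1318 in SNU-216 and 106 to 135 in SNU-601, and the ranges do not overlap. On the log2 scale KATO-III exceeded SNU-216 by 2.84 ± 0.07 and SNU-601 by 6.13 ± 0.07 for ASNS.

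CHAC1 lay under the floor on all 4 SNU-216 arrays (-9.8 to 0.505) and at 226 to 325 in KATO-III and 293 to 401 in SNU-601, at least 8.31-fold and 10.5-fold higher. PHGDH, the first enzyme of serine synthesis, was above the floor in SNU-216 alone (76.6 to 106), at least 2.87-fold higher than in either other line. DDIT3 had 1625 to 3125 in KATO-III, 787 to 1306 in SNU-601 and 292 to 380 in SNU-216, without overlap. TRIB3 was highest in SNU-601 (10916 to 11956), then KATO-III (7263 to 8387) and SNU-216 (5126 to 5594). Leaving PHGDH aside, 1 of the other 9 genes of the branch was higher and 8 were lower in SNU-216 than in SNU-601 (beside 29.4% and 27.1% of all tested genes), and 3 were higher and 4 lower in KATO-III than in SNU-601 (beside 28.7% and 29.9%). ATF4 mRNA, in contrast, differed between lines by at most 0.18 on the log2 scale.

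**Figure D4:**
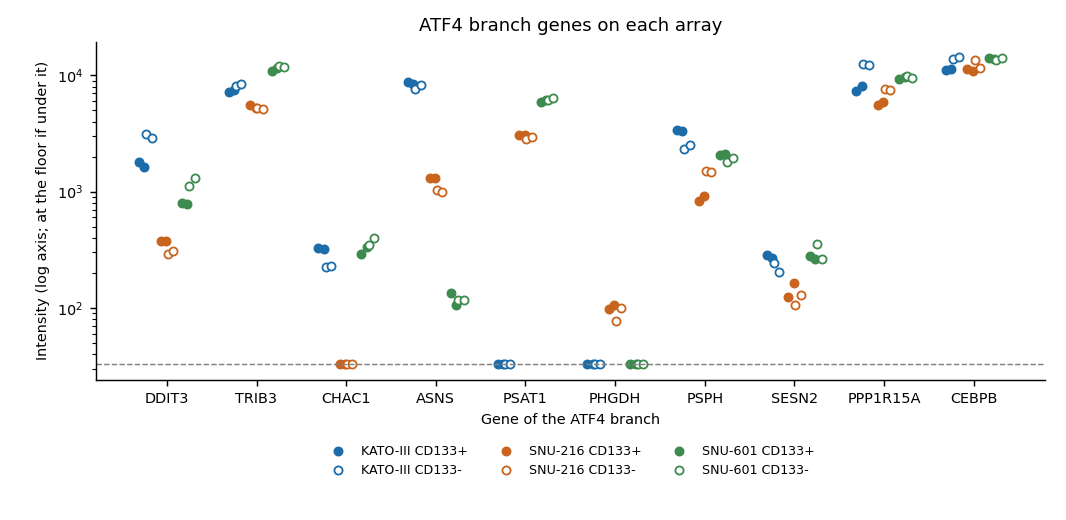
Intensity of the 10 genes of the ATF4 branch on each of the 12 arrays (log axis, filled for CD133+ and open for CD133- arrays), with values under the floor drawn at the floor of 32.7 (dashed line). PSAT1 lies at the floor in KATO-III and CHAC1 in SNU-216, and heights cannot be compared between genes.

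A wider set of 113 further genes of the same pathways, of which 109 were tested, was counted beside the members. In KATO-III, 25 of them were higher in CD133+ cells (22.9%, beside 18.7% of all tested genes) and 38 lower (34.9%, beside 20.6%). In SNU-216, 30 were higher (27.5%, beside 14.6%) and 12 lower (11%, beside 14%), and in SNU-601, 16 were higher (14.7%, beside 8.59%) and 6 lower (5.5%, beside 7.78%). The 23 tested genes of ER folding had 7 higher and 8 lower in KATO-III (median log2 difference -0.02), 3 higher and 5 lower in SNU-216 (0.03), and 6 higher and 0 lower in SNU-601 (0.05). The 21 further degradation genes had 3 higher and 9 lower in KATO-III (-0.23), 6 higher and 2 lower in SNU-216 (0.10), and 4 higher and 1 lower in SNU-601 (0.03). The 20 further genes of the translocon, signal recognition and signal peptide cleavage had 7 higher and 4 lower in KATO-III (0.04), 10 higher and 1 lower in SNU-216 (0.18), and 3 higher and 2 lower in SNU-601 (0.05). The 21 tested further sensors and factors had 3 higher and 8 lower in KATO-III (-0.07), 5 higher and 2 lower in SNU-216 (0), and 1 higher and 2 lower in SNU-601 (-0.08). The 24 tested further genes of the ATF4 branch had 5 higher and 9 lower in KATO-III (0), 6 higher and 2 lower in SNU-216 (0), and 2 higher and 1 lower in SNU-601 (-0.03). Between the lines, 19 of these 24 were higher and 5 lower in KATO-III than in SNU-216 (median 0.94, beside 30.3% higher and 31.7% lower of all tested genes), and 10 were higher and 4 lower in KATO-III than in SNU-601 (0.07, beside 28.7% and 29.9%). CBS and STC2 had means above the floor in SNU-216 alone and ALDH1L2 in KATO-III alone. VLDLR had a mean above it in SNU-216 CD133+ cells alone (50.5, with 28.7 in the CD133- cells). CBS, STC2, VLDLR and ALDH1L2 were tested through those arrays, so that their calls between lines follow from the filter. The medians of 0 within a line include genes under the floor there, whose differences are fixed at 0, such as CBS and STC2 in KATO-III and SLC7A11 in SNU-216.

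Over all lines, 7 of the 109 were called (6.42%, beside 4.73% of all tested genes). On population means limma called 0 of them (3 at an unadjusted p under 0.05), with the population as a random block 0 (15 unadjusted), 0 to 2 when 1 array of KATO-III or SNU-216 was left out, 5 or 6 when 1 array of SNU-601 was, 1 without the filter on dim genes and 3 without the mean-variance trend. SLC1A4, a transporter of neutral amino acids (log2 difference 0.71, adjusted p = 0.0215), MTHFD2, an enzyme of mitochondrial folate metabolism (0.36, adjusted p = 0.0426), and SRP9, a part of the signal recognition particle (0.26, adjusted p = 0.0346), were higher in CD133+ cells. ERN2, the epithelial relative of IRE1 (-1.10, adjusted p = 0.0387), CREB3L2, a factor cleaved like ATF6 (-0.31, adjusted p = 0.0358), TXNDC12, a thioredoxin of the ER (-0.22, adjusted p = 0.038), and DDIT4, an inhibitor of mTOR signaling (-0.21, adjusted p = 0.035), were lower. The relative of ERN1, ERN2, was lower in KATO-III by 2.23 on the log2 scale, and its SNU-601 difference of -0.43 was not called (adjusted p = 0.0913). In SNU-216 its mean intensity was 50.6 in CD133- cells and 30 in CD133+ cells, where it was under the floor, so that its change over all lines is a bound there. SLC1A4 exceeded the floor on 11 arrays and had a mean of 25.3 in SNU-216 CD133- cells, so that a floored value enters its change as well.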

How the data were processed

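Gene expression was measured on 12 Illumina HT-12 v3 BeadChips, 2 for each of 6 sorted populations. The authors deposited linear intensities, quantile-normalized according to their methods, with 1 row per gene symbol, and per the labels BeadStudio was used. The background subtraction shows in the values (-56.4 to 23393.5, 32.1% at or below 0), and the rule that merged several probes into a gene's row is not given in the sources used here. No genome build was needed for the intensities. Of 34688 rows, 93 are empty. Arrays had medians of 26.0 to 27.1 and 16320 to 16474 genes above the floor.

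The floor of 32.7, the absolute value of the percentile 1 of the table, was chosen after values were seen. The 20147 genes (58.2%) above it on at least 2 arrays entered limma (version 3.58.1, R 4.3.3), on log2 values and with a mean-variance trend. Differences within a line, between lines and the interaction came from a model with 6 population means (6 residual degrees of freedom), and the comparison over all lines from a model with line as a block (8 residual degrees of freedom). P-values were adjusted over all tested genes (Benjamini-Hochberg, 0.05). The spread between sorts or cultures cannot be told apart from that between arrays.

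The members, pathway lists and marker lists were chosen with earlier results of these data known. One marker gene is not reported here. Values per array are given for members called in the same direction in all lines or called over all lines, for the 3 called members with the largest change in each line, and for the member of each role with the largest change and with the largest difference between lines. HSPA5, ATF4, ASNS and CHAC1 were added after their values were seen. The alternatives were floors of 16 and 100, an offset of 100, centring and renewed quantile normalization, 2 filters, no trend, the line alone, population means, a random population block, no line block, a replicate block and each array left out. Each line left out was added after the data were seen.

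The scripts were tested on simulated data. With a log2 change of 1 put into 200 of 11674 genes, 97.5% were recovered by limma over all lines, 85.5% of a change in KATO-III alone, and 75% of these by the interaction. These genes are the ones above the floor on all 12 arrays, and only spread between arrays was simulated. Recovery of smaller changes, of dimmer genes and under spread between populations was not tested. Promoter windows and gene synonyms came from RefSeq (GRCh38.p14). Counts, ratios and figures were made in Python 3.11.15 with pandas 2.3.3, numpy 2.4.6 and matplotlib 3.10.9.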

Additional observations from a re-analysis of the deposited data

Results flagged for a closer look

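For 19 members the difference between CD133+ and CD133- cells differed between the 3 lines by the interaction test of limma (adjusted p under 0.05, beside 44.4% of all tested genes). Among the chaperones and folding enzymes these were SDF2L1 (adjusted p = 8.14e-05), PDIA4 (0.000201), HSPA5 (0.000378), PDIA6 (0.000485), CRELD2 (0.00124), HYOU1 (0.00334) and DNAJB9 (0.00345). SDF2L1, HSPA5 and CRELD2 were lower in KATO-III CD133+ cells and higher in SNU-601 CD133+ cells. In the degradation and translocon group they were EDEM1 (4.22e-05), SEC61A1 (0.000233), SYVN1 (0.000405), HERPUD1 (0.00333) and SSR3 (0.012). Of the sensors and factors, ATF4 (0.00311) and EIF2AK3 (0.00955) differed, the latter through SNU-216, where its CD133- intensities lie just above the floor. In the ATF4 branch the values were 3.94e-05 for PSPH, 0.000181 for DDIT3, 0.00058 for PPP1R15A, 0.0118 for CHAC1 and 0.0488 for TRIB3. CHAC1 lay at the floor on all SNU-216 arrays, so that its difference there is fixed at 0. With 2 arrays per population, no array could be tested for standing apart from its group.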

How the results depend on the processing

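Counts of members called in KATO-III (21), in the interaction (19) and between the lines stayed within 1.5 times the main count under every alternative run, and no member's difference that was called changed sign. Leaving out 1 array gave 18 to 22 called members in KATO-III, 8 to 14 in SNU-216 (13 with all arrays), 8 to 12 in SNU-601 (11), 1 to 5 over all lines (5), 18 to 20 in the interaction, 25 to 27 between KATO-III and SNU-216, 28 to 29 between KATO-III and SNU-601, and 27 to 28 between SNU-216 and SNU-601. The 8 in SNU-216 came without SNU-216 CD133+ replicate 2 or SNU-216 CD133- replicate 1. On the 4 arrays of the line alone, 6 members were called in SNU-216 and 2 in SNU-601, with fewer residual degrees of freedom. Over all lines, 1 was called without the mean-variance trend (10 at an unadjusted p under 0.05), 1 over SNU-216 and SNU-601 alone, and limma called 0 on population means (3 unadjusted), 0 with the population as a random block (9 unadjusted) and 0 without the line block (1 unadjusted). With the replicate block, 0 were called over all lines (10 unadjusted), 21 in KATO-III, 10 in SNU-216, 10 in SNU-601 and 19 in the interaction, but arrays of the same number did not deviate together (correlations of 0.026 in KATO-III, 0.013 in SNU-216 and -0.0065 in SNU-601), so that the numbers do not pair them. Of the signal-to-noise ratios, 8 passed 1 or -1 when intensities were centred within each line and 0 as deposited.

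The floor limits what can be said of PDIA3, PSAT1, PHGDH and CHAC1, which were under it on some arrays, and of EIF2AK3 in SNU-216. It also limits ERN2 in SNU-216 CD133+ cells and SLC1A4 in SNU-216 CD133- cells. Values under the floor have no order, and differences against them are lower bounds.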
